A study of Mus musculus with 9 samples.

Results

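The EGR and NR4A immediate early genes were followed liver by liver in RNA-Seq of mouse liver before and after 70% partial hepatectomy. The group comprised 10 of the 43346 genes in the count table, found by gene name: the EGR transcription factor genes Egr1, Egr2 and Egr3, the EGR corepressor genes Nab1 and Nab2, the orphan nuclear receptor genes Nr4a1, Nr4a2 and Nr4a3, and the immediate early response genes Ier2 and Ier3. Of these, 8 passed the filter on low counts, while Egr3 and Nr4a3 did not. The members were chosen by name with the fold changes of these 9 samples already known, and the study itself singled out Nr4a1 and Egr2 from the difference between NSC and vehicle livers, so the values of the 10 genes are given as a description, without P values.

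All mice were 12-week-old WT males of the strain labeled C57/BL6. They were assigned to i.p. NSC-87877 (NSC, an inhibitor of the tyrosine phosphatases SHP1 and SHP2), at 7.5 mg/kg per dose in 2 doses daily, or to an equal volume of saline vehicle. Dosing began 12 hours before surgery. Baseline samples were the lobes removed from vehicle-treated mice at surgery (0 hours), and the other samples were whole lysates of the remaining lobes at 40 hours in vehicle- or NSC-treated mice, with 3 samples in each group, each called a liver here. Resected and remaining lobes are different lobes, and no NSC-treated baseline sample was analyzed here, so an effect of NSC present before surgery cannot be told apart from one that followed it.

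Immediate early genes are transcribed within minutes of a stimulus, without new protein synthesis. Growth factor receptors act on many of them through the RAS-ERK pathway, in which SHP2 takes part, and through serum response factor (SRF), which binds CArG boxes in their promoters. Hormones that raise cAMP act on others, including the NR4A genes, through CREB and the cAMP response element (CRE). EGR proteins bind GC-rich sites as zinc finger transcription factors, and NAB1 and NAB2 bind EGR proteins and repress their activity. In the liver, several of these genes are known for their transient induction after hepatectomy, and NR4A factors for regulation of gluconeogenic genes.

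Promoter sequences were available in RefSeq (GRCm38.p6) for 7 of the 10 genes, namely Egr2, Nab1, Nab2, Nr4a1, Nr4a2, Nr4a3 and Ier3. Shown here are the bases before the transcription start of the 3 genes among them that were furthest below vehicle in the NSC livers, on the plus strand and without annotated exon. The stretches are Nr4a1 at chr15:101266596-101266845, Egr2 at chr10:67537619-67537868 (before the start at 67537869, 1 of 5 starts in the table, and within an intron of longer transcripts) and Ier3 at chr17:35821463-35821683. Capitals mark the CRE half-site TGACG on either strand and, in Egr2, also the CArG box.
Nr4a1: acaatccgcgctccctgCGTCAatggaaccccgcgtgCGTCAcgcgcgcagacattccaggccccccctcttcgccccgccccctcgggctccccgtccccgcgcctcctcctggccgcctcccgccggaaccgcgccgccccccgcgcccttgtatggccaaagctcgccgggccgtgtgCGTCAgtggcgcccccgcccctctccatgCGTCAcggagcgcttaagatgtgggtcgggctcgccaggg
Egr2: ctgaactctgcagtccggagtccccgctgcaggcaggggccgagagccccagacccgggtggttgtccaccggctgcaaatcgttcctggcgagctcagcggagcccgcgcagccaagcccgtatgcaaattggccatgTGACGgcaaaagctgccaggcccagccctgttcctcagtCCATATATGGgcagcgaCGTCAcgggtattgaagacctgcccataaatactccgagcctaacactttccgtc
Ier3: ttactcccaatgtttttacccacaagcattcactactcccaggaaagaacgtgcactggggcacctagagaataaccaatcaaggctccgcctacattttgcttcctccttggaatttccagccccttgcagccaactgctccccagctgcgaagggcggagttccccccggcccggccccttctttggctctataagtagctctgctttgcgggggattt

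In the count table (GRCm38), the genes span chr10:67535475-67542188 for Egr2, chr10:127660918-127668568 for Nab2, chr15:101266846-101274792 for Nr4a1, chr8:84661331-84662852 for Ier2 and chr17:35821684-35822923 for Ier3. The 250 bases before each start were searched on both strands for the CRE half-site TGACG, the full CRE TGACGTCA (which contains the half-site), the TATA box TATAAA, the EGR site GCGTGGGCG, the NR4A site AAAGGTCA and the CArG box. The Nr4a1 window held 4 half-sites, all on the minus strand and the nearest of them 40 bases before the start. The windows of Nr4a2 and Nr4a3 also held 4 each, whereas 17.7% of 32817 mouse promoter windows held at least 1 and 0.137% held 4 or more. Before the Egr2 start shown there were 1 CArG box, at 72 to 63 bases, and 2 half-sites, and a different CArG box stood before another start of this gene (67537566). CArG boxes were found in 1.47% of all windows. Nab1 had 2 EGR sites, a motif present in 0.536% of all windows, and a half-site. Annotated exon covered 231 of the 250 bases of the Nab1 window, these sites included. The Nr4a3 half-site nearest the start also lay in annotated exon. Nr4a2 also had a TATA box on the minus strand, letters present in 12.4% of all windows. The Ier3 and Nab2 windows held none of the letters searched. These matches describe the sequence only.

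Each value below is a level in CPM (counts scaled to a common library size with the TMM factor), and each difference is a fitted log2 fold change ± SE from 3 livers per group. A gene was called when its adjusted P value was below 0.05 and its absolute log2 fold change was above 1.5. The libraries held 23997363 to 42887589 counts, and 3 counts corresponded to 0.0751 to 0.117 CPM. On principal components of all tested genes, NSC replicate 1 lay beside the vehicle livers on the second component (-31.0, against 32.5 and 54.0 in the other NSC livers and -28.1 to -13.4 in vehicle livers). Fold changes between NSC and vehicle also fell with the GC content of transcripts across genes (Spearman's rho = -0.56 over tested genes, which are not independent replicates). Of the 8 tested members, 6 had a GC content above the median of 49.7% (members with a value, tested or not, 47.2% to 60.9%). In whole liver, fewer cells of a type and less RNA per cell cannot be told apart.

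Among the EGR genes, Egr1 was by far the most abundant. It was at 94.1, 59.3 and 78.4 CPM in the baseline livers, at 269, 390 and 280 CPM in the vehicle livers at 40 hours, and at 72.9, 147 and 61.1 CPM in the NSC livers. Every vehicle liver was above every other liver, and the NSC livers overlapped the baseline range. The log2 fold change was 2.02 ± 0.33 for vehicle over baseline, 0.28 ± 0.32 for NSC over baseline and -1.74 ± 0.32 for NSC against vehicle. NSC replicate 2 had the highest Egr1 level of its group, and without it the NSC livers were at -0.20 against baseline.

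Egr2, a close relative of Egr1 that is best known from myelinating Schwann cells, was nearly absent at baseline and had the largest difference between vehicle and baseline of the group. The baseline livers gave 2, 0 and 5 counts, the vehicle livers 177, 180 and 96 counts, and the NSC livers 17, 10 and 10 counts. The 3 groups did not overlap. In CPM, the vehicle livers were at 4.43, 4.66 and 3.54 and the NSC livers at 0.51, 0.34 and 0.391, with baseline at 0.165 or below. Over the summed counts, the vehicle livers were 58.0-fold above baseline (95% interval 27.9 to 145) and the NSC livers 5.67-fold above it (2.49 to 15.1), whereas the NSC livers were 10.2-fold below vehicle (7.32 to 14.7). These intervals cover counting error only. The fitted log2 fold changes were 5.75 ± 0.55, 2.42 ± 0.62 and -3.33 ± 0.44, the first and second resting on the few baseline counts.

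Egr3 gave at most 2 counts in any liver and Egr4, a further EGR gene, gave 0 counts in every liver, so no difference in either was detectable at this depth. The length of Egr3 in the count table was 1416 bases, against 4406 exonic bases in the GENCODE M21 annotation. Reads from the remainder may not have been counted.

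**Figure D1:**
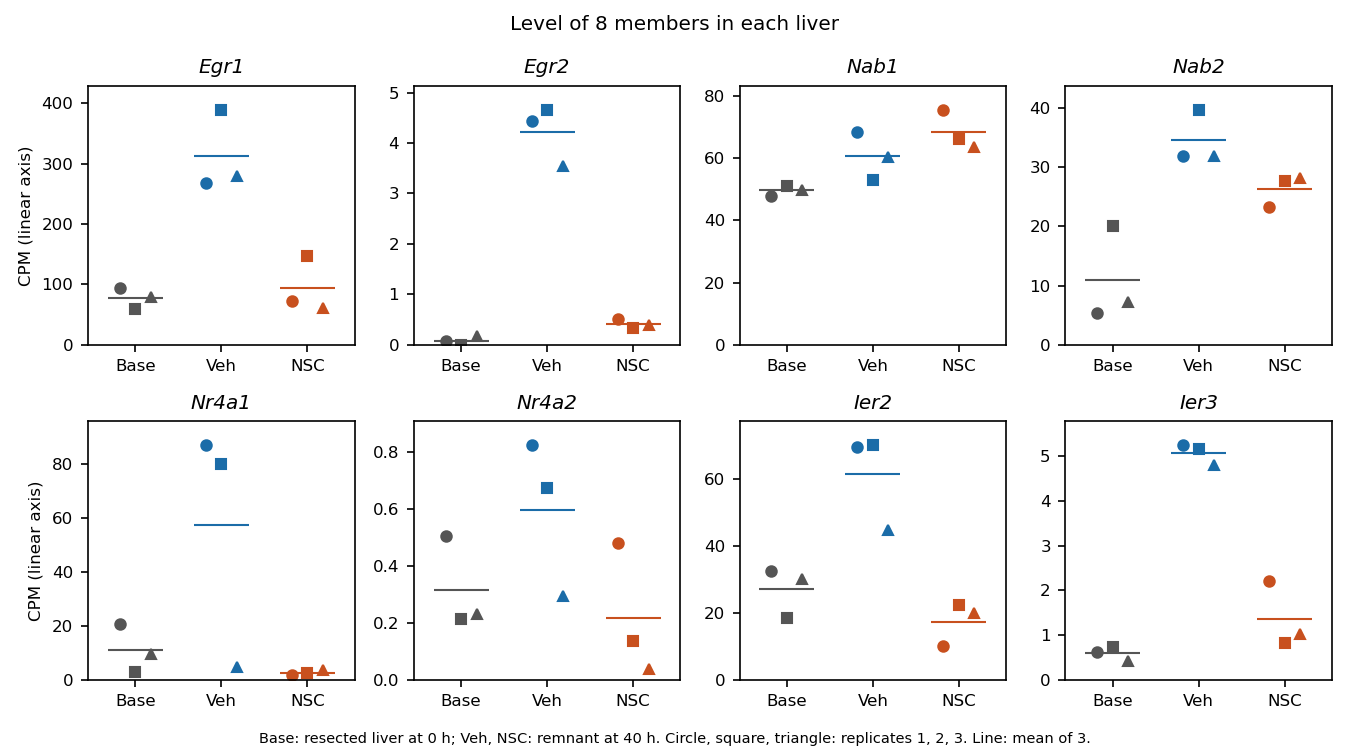
Level of the 8 tested members in each liver, in CPM on linear axes that start at 0; circles, squares and triangles mark replicates 1, 2 and 3, and the line is the mean of 3. The vehicle livers sit apart above both other groups for Egr1, Egr2, Nab2, Ier2 and Ier3, while for Nr4a1 vehicle replicate 3 (4.65 CPM) lies within the baseline range.

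Both corepressor genes were expressed in every liver. Nab1 was at 48.0, 51.1 and 50.0 CPM at baseline, 68.4, 52.9 and 60.5 CPM in vehicle and 75.7, 66.1 and 63.8 CPM in NSC livers. Both remnant groups lay above baseline and overlapped each other. The log2 fold changes were small, 0.29 ± 0.14 for vehicle and 0.46 ± 0.14 for NSC over baseline, and 0.18 ± 0.14 between the treatments. Nab2, whose gene is itself a known target of EGR1, was at 5.37, 20.2 and 7.19 CPM at baseline. It was at 32.0, 39.8 and 32.0 CPM in vehicle and at 23.2, 27.6 and 28.1 CPM in NSC livers. The 3 groups did not overlap. Nab2 was above baseline by 1.66 ± 0.43 in vehicle and 1.27 ± 0.43 in NSC livers (log2), and NSC differed from vehicle by -0.39 ± 0.42. After correction for GC content (60.1% for Nab2) the last difference was 0.0029 ± 0.40. Baseline replicate 2 held 660 of the 1048 Nab2 counts at baseline, and without it the difference of vehicle from baseline was 2.46. The call of Nab2 for vehicle over baseline held in 11 of 18 alternatives. It was lost when baseline replicate 1 (1.33), baseline replicate 3 (1.44) or any vehicle liver was left out. In the annotation, 1050 of the 2941 exonic bases of Nab2 overlap the antisense gene Gm16229, which received 0 to 2 counts per liver. Smaller stretches are shared with Nemp1 (151 bases) and Stat6 (40 bases) on the opposite strand.

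Per length of transcript, Egr1 stood at 3.59 to 6.73 times Nab1 in the vehicle livers, at 1.06 to 1.79 times at baseline and at 0.876 to 2.04 times in NSC livers. The vehicle livers were apart from both other groups. The Egr1 level was 5.51 to 6.43 times that of Nab2 in vehicle and 1.42 to 3.50 times in NSC livers. These ranges did not overlap either, while the baseline livers spread from 1.93 to 11.5.

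**Figure D2:**
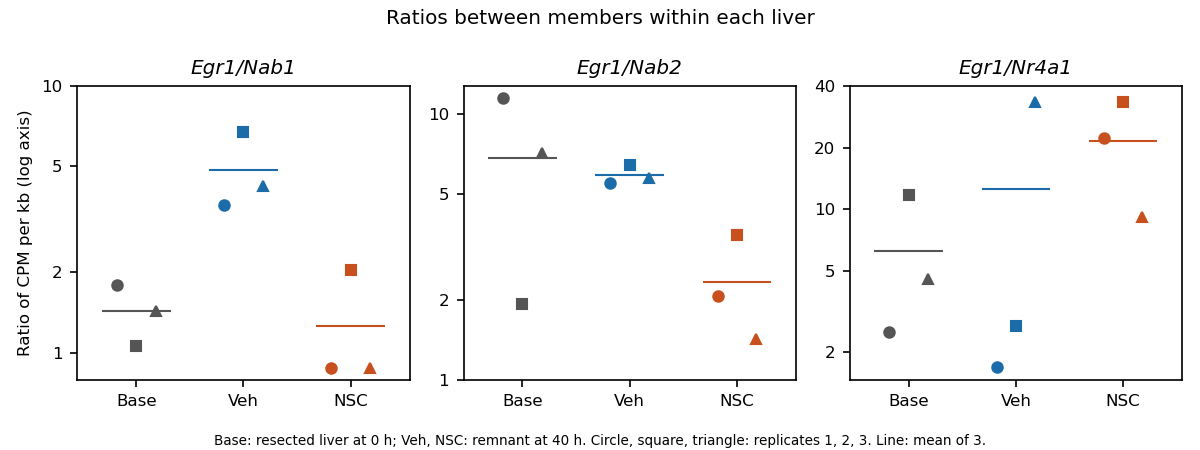
Ratios of CPM per kb between members within each liver, on log axes; symbols mark replicates 1 to 3 and lines the means of 3 livers. Egr1 over Nab1 is 3.59 to 6.73 in the vehicle livers and at most 2.04 elsewhere, and Egr1 over Nr4a1 is 33.2 in vehicle replicate 3 against 1.70 and 2.69 in the other vehicle livers.

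Of the NR4A genes, which encode nuclear receptors that act without a known ligand, only Nr4a1 was above 1 CPM in these 9 samples. Nr4a1 was at 20.5, 2.78 and 9.50 CPM at baseline, at 87.1, 79.9 and 4.65 CPM in vehicle and at 1.80, 2.44 and 3.68 CPM in NSC livers. All NSC livers were below all vehicle livers, but vehicle replicate 3 fell within the baseline range and less than 1 CPM above the highest NSC liver. The log2 fold change was 2.39 ± 1.09 for vehicle over baseline, -2.06 ± 1.15 for NSC against baseline and -4.45 ± 1.22 for NSC against vehicle. The SE of the last value was the widest of the group, and leaving out single livers moved it between -4.99 and -4.02. Within vehicle replicate 3, Egr1 per length was 33.2 times Nr4a1, against 1.70 and 2.69 times in the other vehicle livers, so this liver was low for Nr4a1 but not for Egr1.

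Nr4a2 was scarce, at 0.505, 0.214 and 0.231 CPM at baseline, 0.826, 0.674 and 0.295 CPM in vehicle and 0.48, 0.136 and 0.0391 CPM in NSC livers. Its groups overlapped in every comparison, and NSC differed from vehicle by -1.40 ± 0.69 (log2), or by -2.71 without NSC replicate 1. Nr4a3 gave 17, 3 and 5 counts at baseline, 11, 2 and 1 in vehicle and 4, 2 and 2 in NSC livers, which is too few for a comparison.

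Ier2, an immediate early nuclear protein gene, was at 32.4, 18.5 and 30.2 CPM at baseline, 69.6, 70.2 and 44.8 CPM in vehicle and 10.1, 22.3 and 19.8 CPM in NSC livers. The vehicle livers were apart from both other groups, and the NSC livers overlapped baseline. Its log2 fold changes were 1.19 ± 0.32 for vehicle and -0.63 ± 0.32 for NSC over baseline, and -1.82 ± 0.32 between the treatments. Ier3, a stress- and ERK-responsive gene linked to cell survival, was at 0.632, 0.733 and 0.429 CPM at baseline. It reached 5.26, 5.16 and 4.80 CPM in vehicle livers, the narrowest spread of any member there, and 2.22, 0.815 and 1.02 CPM in NSC livers. The groups did not overlap. Log2 fold changes were 3.07 ± 0.39, 1.18 ± 0.39 and -1.89 ± 0.36 in the same order. NSC replicate 1 held the highest Ier3 level of the NSC livers, and without it NSC was above baseline by 0.60 and below vehicle by a log2 fold change of -2.47.

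**Figure D3:**
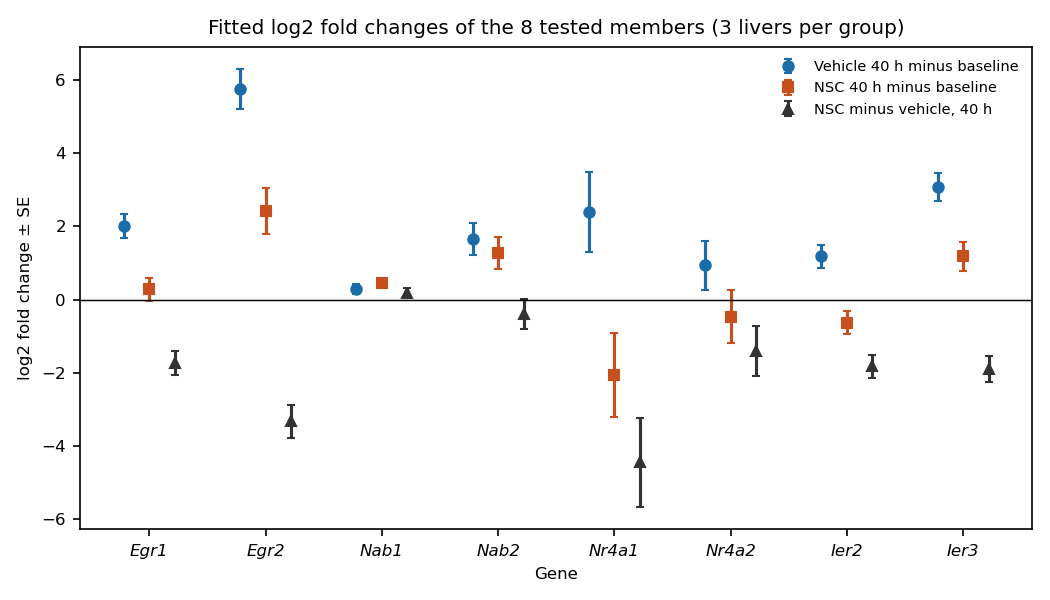
Fitted log2 fold changes with SE for the 8 tested members in the 3 comparisons, 3 livers per group. Vehicle over baseline lies above 0 for all 8 genes, and NSC against vehicle lies below 0 for 7, with Nab1 at 0.18 and Nr4a1 at -4.45 ± 1.22.

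The order of the members by level per length also differed between groups. At baseline, Ier2 and Egr1 led with 17.8 ± 4.92 and 17.2 ± 3.88 CPM per kb (SD, n = 3) and overlapped each other, followed by Nab1 at 12.1 ± 0.393. In the vehicle livers Egr1 led alone at 69.8 ± 14.9 CPM per kb, ahead of Ier2 at 40.4 ± 9.51 and Nr4a1 at 23.1 ± 18.5, which overlapped. By mean, Nab1 at 14.8 ± 1.89 and Nab2 at 11.8 ± 1.53 came next and overlapped too. Nr4a1, which ranged from 1.88 to 35.2 CPM per kb, overlapped both of them. In NSC livers Egr1 at 20.9 ± 10.4 and Nab1 at 16.7 ± 1.54 CPM per kb overlapped at the top, and Nr4a1 at 1.07 ± 0.386 overlapped Ier3 at 1.19 ± 0.671. Egr2 was at 1.24 ± 0.174 CPM per kb in vehicle livers, below Ier3 at 4.48 ± 0.213 and above Nr4a2 at 0.147 ± 0.0673 without overlap.

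Counted over the group, the vehicle remnant was above baseline in all 8 tested members, and 4 of them were called (Egr1, Egr2, Nab2, which was called in 11 of 18 alternatives, and Ier3), beside 5.03% of 15024 genes called higher. With the adjusted P value alone there were 5, Ier2 being added, beside 12.7% of all genes. In 6 of the 8 the vehicle livers lay apart above baseline, beside 24.2% of all genes. The median log2 fold change was 1.84, against 0.01 for all tested genes. For NSC over baseline, 1 member was called (Egr2), beside 5.38% of all genes, and 4 passed the adjusted P value alone (Egr2, Nab1, Nab2 and Ier3), beside 18.2%. The same 4 lay apart above baseline, beside 24% of all genes, and the median was 0.37. Between NSC and vehicle, 7 of 8 members were lower in NSC livers, with a median of -1.78 against 0.02 for all genes. Of these, 1 was called lower (Egr2), beside 0.02% of all genes, or 0.0399% by the adjusted P value alone. The groups lay apart in 6 members (Egr1, Egr2, Nab2, Nr4a1, Ier2 and Ier3), beside 12.2% of all genes. Because the members were chosen with these contrasts known, nothing is read from these shares.

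The count between NSC and vehicle depended on the method. Egr2 was the sole member called by edgeR, while DESeq2 called 5 members lower, Egr1, Egr2, Nr4a1, Ier2 and Ier3. With GC correction edgeR called none. The median of the 8 members was then -1.43, and 6 were lower. Without NSC replicate 1, edgeR called 4 members lower (Egr1, Egr2, Ier2 and Ier3), with a median of -2.03. Without vehicle replicate 3 it called 2 (Egr2 and Ier2). Over all genes, DESeq2 and the fit without NSC replicate 1 also called more than the main fit, as given in the last section. Nothing is read from these counts of members. The Egr2 difference itself lay between -3.52 and -3.20 under every alternative tried, and was called in 9 of 17. The part of GC content and of NSC replicate 1 in these differences beyond those values was not tested.

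A list of 40 other immediate early genes, of which 35 were tested, was counted in the same fit. It was written with earlier results of these data known. In vehicle livers, 8 were called higher than baseline and 0 lower (1 lower by the adjusted P value alone, beside 11% of all genes, and 1 called lower by DESeq2). Their median log2 fold change was 0.47, beside the shares of all genes given above and 2.19% called lower. Socs3, a feedback inhibitor of cytokine signaling, rose by 2.81 ± 0.30 (adjusted P = 0.000231, edgeR quasi-likelihood test). Dusp5, a nuclear ERK phosphatase, rose by 3.90 ± 0.64 (adjusted P = 0.00218, edgeR). Ier5, a further early response gene, rose by 2.62 ± 0.30 (adjusted P = 0.000158, edgeR). Also called, and named after their values were seen, were Fos (3.38), Junb (1.93), Klf6 (1.76), Btg2 (2.34) and Ccn1 (2.61). Klf6 was called in 13 of 18 alternatives and Ccn1 in 11 of 18, while Fos, Junb and Btg2 were called in 18 of 18. In NSC livers 3 of the list were called higher than baseline and 3 lower, beside 2.75% of all genes called lower, and the median was -0.39. By the adjusted P value alone, 8 were lower, beside 16.5% of all genes. Ier5 rose by 2.58 ± 0.30 (adjusted P = 0.000126, edgeR), and Socs3 by 1.62 ± 0.29 (adjusted P = 0.00222, edgeR). Plk3, a polo-like kinase of stress responses, fell by 1.95 ± 0.23 (adjusted P = 0.000146, edgeR). The circadian repressor Per1 fell by 2.24 ± 0.37 (adjusted P = 0.00197, edgeR). The other genes called, named after their values were seen, were Dusp5 (2.17, adjusted P = 0.024) and the stress gene Gadd45b (-2.79, adjusted P = 0.049), by edgeR. Gadd45b was called in 6 of 18 alternatives and Dusp5 in 12 of 17, neither of them without NSC replicate 1, and Socs3 in 16 of 18, its call being lost when baseline replicate 3 or NSC replicate 2 was left out.

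Between the treatments, 28 of the 35 were lower in NSC livers, with a median of -0.84, and 12 lay apart below vehicle, beside 12.2% of all genes. The median was -0.67 after GC correction and -0.92 without NSC replicate 1. Only Plk3 was called by edgeR, while 17 had an unadjusted P value below 0.05, beside 19.5% of all genes, and DESeq2 called 8 lower. Plk3 was at 117, 149 and 76.3 CPM in vehicle and at 43.9, 36.7 and 32.6 CPM in NSC livers. The groups did not overlap, and the log2 fold change was -1.60 ± 0.23 (adjusted P = 0.047, edgeR). Plk3 was called in 7 of 18 alternatives, and over all 18 its adjusted P value was at most 0.308 and its log2 fold change lay between -1.82 and -1.20. It was not called with library size alone, in a fit of only these groups, with GC correction with or without the block, or without any 1 of the libraries except vehicle replicate 3 and NSC replicate 1. Ier5 differed by -0.05 ± 0.27 between the treatments.

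**Figure D4:**
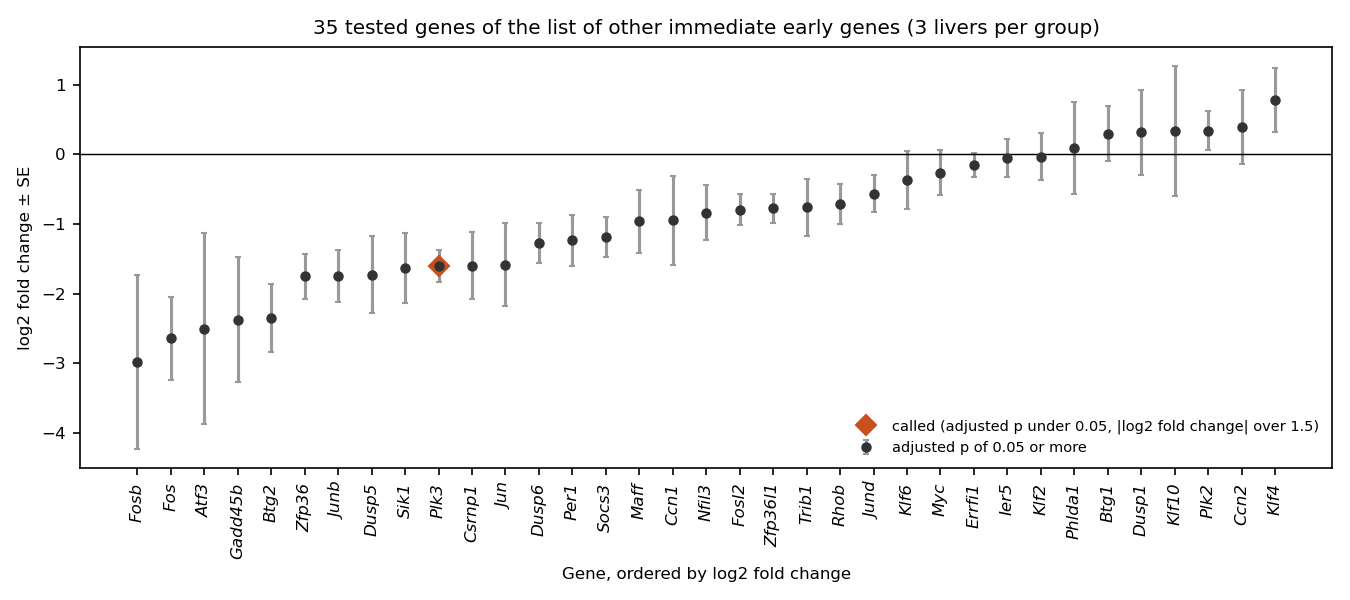
Log2 fold change between NSC and vehicle livers at 40 hours, with SE, for the 35 tested genes of the list of other immediate early genes, ordered by value; the diamond marks Plk3 (-1.60), the gene called by edgeR. Points lie below 0 for 28 genes and above 0 for 7.

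The genes whose levels followed a member most closely over the 9 samples were found by the root mean square difference of centered log2 CPM, among 15016 tested genes. For Egr1 they were Slc23a3, Fbln1, Brsk1, Sept5 and Btg2, at 0.416 to 0.446, against a median of 1.05 for all genes. Sept5 was listed under a date-like name and matched by its identifier. Slc23a3 was at 0.099 to 0.601 CPM and Brsk1 at 0.0611 to 0.415 CPM, at or below 3 counts in some livers. Btg2, an antiproliferative early gene, was at 334, 381 and 164 CPM in vehicle and at 51.1, 77.6 and 43.6 CPM in NSC livers. It was at 34.8 to 100 CPM at baseline. For Nr4a1 the nearest were Fosb, Gdf15, Gadd45b, Atf3 and again Btg2, at 0.826 to 1.24, against a median of 2.04. Fosb, an AP-1 subunit gene, was at 2.98, 3.34 and 0.185 CPM in vehicle livers and at 0.12, 0.475 and 0.235 CPM in NSC livers, thus low in vehicle replicate 3 as Nr4a1 was. Vehicle replicate 3 was also the lowest vehicle liver for Gdf15 (6.13 CPM), Gadd45b (3.47 CPM) and Atf3 (2.73 CPM). Gene choice here rests on the likeness itself, and no test was made.

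**Figure D5:**
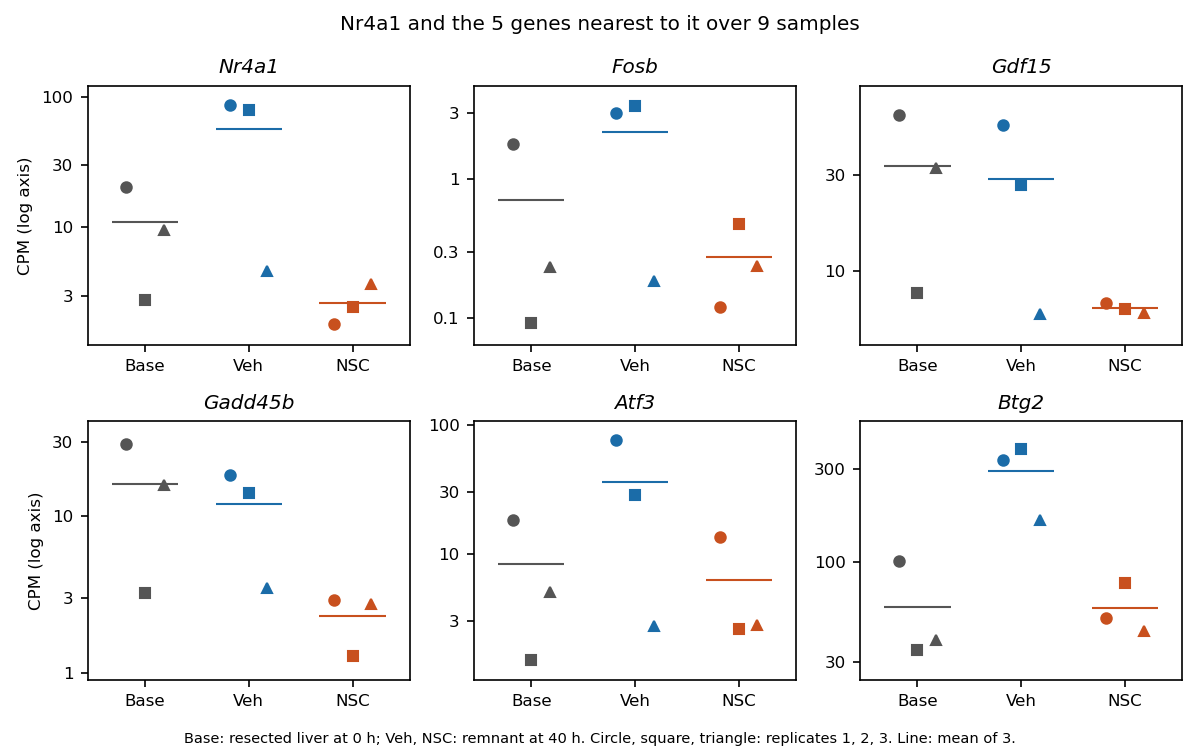
Level of Nr4a1 and the 5 genes nearest to it in each liver, in CPM on log axes; symbols mark replicates 1 to 3 and lines the means of 3 livers. Vehicle replicate 3 is the lowest vehicle liver in all 6 panels, at 4.65 CPM for Nr4a1 and 0.185 CPM for Fosb.

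Upstream and downstream genes were counted from lists that were also written with earlier results of these data known. Of 12 genes for SRF, its ternary complex and myocardin-related cofactors and CREB with its coactivators, 0 were called in either remnant group against baseline. At an unadjusted P value below 0.05 there were 4 in vehicle, beside 37% of all genes, and 5 in NSC livers, beside 45.2%, and DESeq2 also called 0. The adjusted P value alone was passed by 0 genes higher and 1 lower in vehicle, beside 12.7% and 11% of all genes. In NSC livers it was passed by 1 higher and 2 lower, beside 18.2% and 16.5%. Among these were Crtc2, a CREB coactivator gene (-1.17 in NSC livers, adjusted P = 0.000416, edgeR), and Creb1 (0.81 in NSC livers, adjusted P = 0.00277, edgeR). Both were named after their values were seen. Between the treatments edgeR and DESeq2 called 0 of the 12, with 6 at an unadjusted P value below 0.05, beside 19.5% of all genes, and a median of -0.21. Of the 3 retinoid X receptor genes, whose products pair with NR4A1, Rxrg was called lower in vehicle livers (-1.85 ± 0.38, adjusted P = 0.00474, edgeR). In NSC livers it differed from baseline by -1.49 ± 0.37 (adjusted P = 0.00931, edgeR), short of the fold change threshold. All 3 genes were lower there and passed the adjusted P value alone, beside 16.5% of all genes.

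The 9 known EGR targets include Phlda1, which is also in the list of other immediate early genes. Among the 9, 3 were called higher than baseline in vehicle livers (median 0.56), beside 5.03% of all genes. The example with the smallest P value was Icam1, an adhesion molecule gene, which rose by 2.01 ± 0.20 (adjusted P = 6.98e-05, edgeR). The other genes called, named after their values were seen, were Fgf2 and Thbs1, encoding a growth factor and a matrix protein. Fgf2 (2.68 ± 0.76) gave 1 to 3 counts per liver at baseline and 12 to 17 in vehicle. Thbs1 (2.88 ± 0.74) gave 21 to 31 and 92 to 323 counts. Fgf2 was called in 12 of 17 and Thbs1 in 12 of 18 alternatives. Both calls were lost when any baseline liver or vehicle replicate 2 was left out. NSC livers had 0 called against baseline by either tool, with 1 past the adjusted P value alone, beside 18.2% of all genes, and 2 at an unadjusted P value below 0.05, beside 45.2% (median 0.88). Between the treatments edgeR called 0 and DESeq2 1 lower, and 3 had an unadjusted P value below 0.05, beside 19.5% of all genes (median -0.17).

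Of 4 glucose metabolism targets of NR4A1, 3 were tested and lower than baseline in both remnant groups. G6pc, encoding the last enzyme of glucose release, fell by 2.03 ± 0.30 in vehicle (adjusted P = 0.000909, edgeR) and by 2.60 ± 0.31 in NSC livers (adjusted P = 0.000173, edgeR). Nr4a1 was at 4.65 to 87.1 CPM in vehicle livers and at 1.80 to 3.68 CPM in NSC livers. A part of Nr4a1 in the G6pc levels was not tested. Of 8 targets of cAMP and CREB, 1 was called lower in vehicle livers, beside 2.19% of all genes. In NSC livers 3 were called lower (G6pc, Per1 and Pck1), beside 2.75%. This list shares G6pc with the NR4A1 targets, Per1 and Sik1 with the other immediate early genes, and Crem with the upstream genes. Pck1, the rate-limiting gluconeogenic enzyme gene, fell in NSC livers by 1.97 ± 0.26 (adjusted P = 0.000271, edgeR). In vehicle livers it differed from baseline by -0.84 ± 0.25 (adjusted P = 0.0307, edgeR), short of the fold change threshold. Between the treatments edgeR called 0 of the 8, DESeq2 called 1 lower, and 4 had an unadjusted P value below 0.05, beside 19.5% of all genes.

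The labeled tissue was checked by hepatocyte markers, of which 6 genes summed to 87680 to 123200 CPM over all livers. Summed levels of 10 macrophage markers were 215 to 295 CPM at baseline, 203 to 368 CPM in vehicle and 364 to 575 CPM in NSC livers. Markers of cholangiocytes (5 genes) summed to 37.8 to 40.6 CPM at baseline, 76.0 to 115 CPM in vehicle and 79.0 to 122 CPM in NSC livers. Spp1 made up most of this sum, with means of 33.2, 73.2 and 84.3 CPM in the same order. Means of Krt19 (0.935, 3.93 and 1.85 CPM), Krt7 (0.606, 4.14 and 2.02 CPM) and Sox9 (2.98, 7.34 and 5.34 CPM) were highest in vehicle livers. Epcam was at means of 1.11, 0.816 and 0.924 CPM. Neutrophil markers summed to 3.79 to 11.2, 9.30 to 18.8 and 12.5 to 19.1 CPM, with 1 of the 7 at or below 3 counts in every liver, and lymphocyte markers to 3.24 to 9.90, 1.37 to 2.75 and 2.67 to 3.60 CPM in the same order. Endothelial sums were 173 to 180, 110 to 177 and 127 to 226 CPM, stellate sums 116 to 129, 122 to 173 and 103 to 161 CPM. Erythroid sums were 225 to 327, 105 to 185 and 129 to 230 CPM. Alas2 had means of 152, 42.7 and 50.1 CPM in the same order. Means were 66.6, 55.9 and 72.3 CPM for Hbb-bs and 20.6, 19.6 and 22.6 CPM for Hbb-bt. They were 19.2, 14.4 and 13.9 CPM for Hba-a1 and 12.3, 7.54 and 8.36 CPM for Hba-a2. Platelet sums were 4.52 to 6.53, 3.62 to 5.34 and 3.72 to 5.46 CPM. Itga2b had means of 4.52, 2.81 and 2.32 CPM, Pf4 0.484, 1.19 and 1.09 CPM, and Ppbp 0.468, 0.41 and 1.02 CPM. Directions between the treatments were counted over tested markers, with the median log2 fold change. NSC livers were above vehicle for 9 of 10 macrophage (0.55), 5 of 6 endothelial (0.49) and 4 of 5 lymphocyte markers (0.24). The same held for 4 of 5 erythroid (0.21) and 3 of 5 neutrophil markers (0.01). They were below vehicle for 5 of 6 stellate (-0.35), 3 of 5 cholangiocyte (-0.46), 4 of 6 hepatocyte (-0.05) and 2 of 3 platelet markers (-0.12). The part of these cells in the differences of the members was not tested.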

How the data were processed

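RNA-Seq was performed on whole liver lysates in 9 samples, 3 per group, with an Illumina TruSeq Stranded mRNA library protocol per the labels. The deposited counts per gene were made by the authors with MAP-RSeq, in which STAR (2.6.1) aligned the paired-end reads and featureCounts of Subread (1.5.1) counted them. The strand setting of the counting is not given in the sources used here. The processing notes name hg38, while the gene identifiers and coordinates in the file are of mouse GRCm38. GENCODE M21, used here for exons and GC content, differs from the file for some genes. Egr3 has 1416 bases in the file and 4406 exonic bases in GENCODE M21, and Nr4a1 has 2474 and 3307. The deposited FPKM values were made by the authors from the same counts and were not used for any value here. The total they imply was 0.0302% to 0.0309% above the sum of the listed counts. Samples were grouped by the labels, and the deposited columns were matched to samples by name. The sources used here do not say whether baseline and vehicle remnant samples of the same number came from the same mouse.

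Counts were analyzed in edgeR (4.0.16, R 4.3.3) with filterByExpr, TMM factors and a robust quasi-likelihood fit over all 9 libraries. P values were adjusted by the Benjamini-Hochberg method over 15024 genes, and levels per length used the gene lengths in the file. The group was followed with earlier results of these data known, and the members and gene lists were chosen with them known too. P values set a group difference against the spread between livers within groups, estimated over all 9 libraries with information shared across genes. An exact two-sided permutation test of 3 against 3 could not go below P = 0.1. By rule, the genes named were all 10 members and at most 6 called genes of the other lists per comparison (smallest adjusted P value first). The rule also took the 5 genes nearest to Egr1 and to Nr4a1, the most abundant EGR and NR4A genes. Further genes of the lists were named outside this rule after their values were seen, as stated with them, and single marker genes were named too. Count ratios carry 95% Poisson intervals. Replicates of a group differed far beyond sampling noise. The fit was tested on simulated counts. Alternatives were other scaling, DESeq2 (1.42.0), other filters, fits of the compared groups, a replicate block, a correction for GC content by loess and leaving out each library. Promoter windows came from RefSeq (GRCm38.p6). Figures were drawn with matplotlib (3.10.9). A gene of the list of EGR targets is not reported here and was left out of its counts.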

Additional observations from a re-analysis of the deposited data

Results flagged for a closer look

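A difference between groups was found in 1 gene of the list of other immediate early genes by the edgeR quasi-likelihood test of NSC against vehicle livers at 40 hours. Plk3 was below vehicle in all 3 NSC livers, with a log2 fold change of -1.60 (adjusted P = 0.047, edgeR). It was called in 7 of 18 alternatives, and not with library size alone or with GC correction. Plk3 was not called in vehicle livers against baseline (-0.35). Without an NSC-treated baseline group, a difference in the response to hepatectomy itself was not tested.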

How the results depend on the processing

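Without a fold change threshold, 3564 genes passed the adjusted P value for vehicle and 5207 for NSC over baseline, and 6 between the treatments (1085, 1222 and 3 with it). With at least 10 counts in every library 596 and 704 genes were called over baseline. Between the treatments, library size alone gave 1 gene, DESeq2 45, a filter of at least 1 count 20, a fit of only these groups 5, GC correction 0, and GC correction with the replicate block 1. On the list of other immediate early genes these comparisons gave 1 call as reported, 0 with library size alone, 8 with DESeq2, 0 with GC correction and 0 with both GC correction and block. Leaving out 1 library gave 0 to 181 genes between the treatments (181 without NSC replicate 1) and 0 to 7 on the list (7 without vehicle replicate 3), and 3 to 9 on the list for NSC over baseline. The causes were not tested. Same-numbered livers correlated at -0.048 to 0.13 in their deviations from group means, and 8 of 9 libraries correlated best with their own number, a hint from the data only, so the replicate number was not taken as a pairing. With the replicate block, 5 genes were called between the treatments. Among members, Egr1, Egr2 and Ier3 were called for vehicle over baseline in every alternative that could be run, and Nab2 in 11 of 18. For Egr1, NSC over baseline lay between -0.20 (without NSC replicate 2) and 0.62 (GC correction). Scaling by library size alone moved the median of all genes between the treatments to 0.14, and 7 of 8 members stayed below vehicle. Depth limits Egr3, Nr4a3 and the baseline values of Egr2 and Fgf2. Egr3 also had a shorter length in the count table than in GENCODE M21.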
